A study of Mus musculus with 6 samples.

Results

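Orphan and adhesion G protein coupled receptors were compared between intestinal cells sorted for a cholecystokinin reporter and other intestinal cells. The genes were all those on the array with a single annotated symbol made of Gpr and a number (61 genes) or beginning with Adgr (22 genes), 83 of 18193 genes in all. Each was represented by its brightest probe set by the mean of the 6 arrays. Relative to non-EGFP cells, CCK-EGFP cells had 10 of the 83 higher (12%, against 14% of all genes) and 5 lower (6.0%, against 10.2% of all genes) by limma with Benjamini-Hochberg adjustment at 0.05. Of the increases, 5 exceeded 3 on the log2 scale. The largest were in Gpr6, Adgrf5, Gpr22, Adgrl1 and Gpr137b, and the largest fall was in Gpr17.

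G protein coupled receptors cross the membrane several times and pass a signal from outside the cell to heterotrimeric G proteins and arrestins inside it. A receptor is called an orphan while no ligand for it is agreed, and many keep a Gpr number after a ligand has been proposed. Adhesion receptors carry a long extracellular region that binds other cells or matrix, and most are cut next to a short tethered agonist that can activate the receptor. Enteroendocrine cells sense the gut lumen through receptors of this superfamily and answer by releasing hormones such as cholecystokinin.

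Total RNA came from adult Swiss Webster mice that all carried the CCK-EGFP transgene, in which enhanced green fluorescent protein marks cells expressing Cck. Intestine was dissociated with enzymes and sorted into fluorescent cells (3 arrays) and an equal number of non-fluorescent cells (3 arrays). The values are log2 intensities, so a difference of 1 is a doubling. The labels give neither the segment of intestine nor the animals behind each array, and p-values therefore reflect spread among these samples alone, which may be technical. The 7 enteroendocrine markers (Cck, Chga, Chgb, Pcsk1, Neurod1, Scg2 and Scgn) were each higher in CCK-EGFP cells, with a mean level of 12.84 to 13.13 against 8.08 to 8.27. Enterocyte markers were high in both groups, at 12.99 to 13.52 and 13.76 to 13.79 respectively, and 0 of their 5 measured members passed the limma test (3 at an unadjusted p below 0.05). All 5 were nevertheless lower in CCK-EGFP cells without overlap (100%, against 28.1% of all genes). In sorted pools, fewer cells of a type and less RNA per cell cannot be told apart.

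The 4 receptors with the largest increases are shown by the 250 bases that precede their transcription start. They were chosen by the size of their increases alone, and their promoters differ in composition. The sequences are from RefSeq, build GRCm38.p6, and each runs 5′ to 3′ on the strand of its gene. Gpr6 is at chr10:41072291-41072540 on the minus strand, Gpr22 at chr12:31713884-31714133 on the minus strand, Adgrl1 at chr8:83899848-83900097 on the plus strand and Adgrf5 at chr17:43360181-43360430 on the plus strand. Of the 2 starts listed for Adgrf5 the first is shown. Capitals mark matches on either strand to the cyclic AMP response element TGACGTCA, the E-box CAGNTG, the GC box GGGCGG, the CCAAT box and the TATA box TATAAA.
Gpr6: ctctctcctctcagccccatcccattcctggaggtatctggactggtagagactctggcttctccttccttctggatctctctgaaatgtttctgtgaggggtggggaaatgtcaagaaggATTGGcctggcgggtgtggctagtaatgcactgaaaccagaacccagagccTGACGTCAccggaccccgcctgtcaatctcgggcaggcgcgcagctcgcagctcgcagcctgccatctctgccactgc
Gpr22: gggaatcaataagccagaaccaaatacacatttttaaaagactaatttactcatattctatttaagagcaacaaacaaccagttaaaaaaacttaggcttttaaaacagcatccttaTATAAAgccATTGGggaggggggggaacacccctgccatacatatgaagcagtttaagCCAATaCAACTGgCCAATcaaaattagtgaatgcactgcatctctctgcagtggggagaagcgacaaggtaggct
Adgrl1: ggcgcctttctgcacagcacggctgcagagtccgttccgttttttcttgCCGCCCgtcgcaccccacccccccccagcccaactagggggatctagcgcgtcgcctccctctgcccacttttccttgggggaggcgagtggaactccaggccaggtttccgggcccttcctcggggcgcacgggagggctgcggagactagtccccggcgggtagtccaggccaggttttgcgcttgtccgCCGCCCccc
Adgrf5: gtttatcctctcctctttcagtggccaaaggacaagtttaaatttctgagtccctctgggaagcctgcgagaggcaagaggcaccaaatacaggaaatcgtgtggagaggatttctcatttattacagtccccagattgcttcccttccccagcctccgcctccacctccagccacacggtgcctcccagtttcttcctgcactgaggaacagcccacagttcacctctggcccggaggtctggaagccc
The GC content of these windows was 58.4% for Gpr6, 39.6% for Gpr22, 68.8% for Adgrl1 and 54.4% for Adgrf5, against a median of 52.4% over all RefSeq promoters in the table. Gpr6 held a CCAAT box and, 78 bases before the start, the cyclic AMP response element, and it was the 1 of 63 receptors with a listed promoter to do so (1.6%), against 1.8% of all 27025 genes. Gpr22 held a TATAAA 133 bases before the start, 3 CCAAT boxes and 1 E-box, Adgrl1 held 2 GC boxes, and the window of Adgrf5 held none of the 5 motifs. Among the 63 receptors 63.5% held an E-box, 46.0% a GC box, 44.4% a CCAAT box and 11.1% a TATAAA, against 48.2%, 35.4%, 37.5% and 14.3% of all genes. A match of letters is a description of the window and not a binding site.

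Olfactory receptor genes gave the background, on the assumption that intestinal cells do not use them, which was not tested for any of them. The 95th percentile of the means of their 44 probe sets was 4.0, and 55 of the 83 receptors exceeded it in the mean of at least 1 group (66.3%), against 81.7% of all genes. Both groups were above it for 42 receptors, CCK-EGFP cells alone for 3 (Gpr6, Gpr22 and Gpr153) and non-EGFP cells alone for 10 (Gpr182, Gpr50, Gpr83, Gpr161, Gpr179, Gpr162, Gpr165, Adgre4, Adgra2 and Adgra1). On all 6 arrays 35 were above the level, and on no array were 21. The lowest higher-group means above the level were 4.01 for Gpr179, 4.03 for Gpr165 and 4.04 for Gpr83, and the nearest below it were 3.86 for Gpr26, 3.73 for Gpr45 and 3.68 for Adgrg3. The olfactory receptor probe sets themselves moved with the groups. Of the 44, 43 had a lower mean in CCK-EGFP cells, with a median log2 difference of -0.35. Their median was 2.54 in CCK-EGFP and 2.94 in non-EGFP cells, while the same level served both groups. The highest olfactory mean in non-EGFP cells was 4.48 (Olfr558). Of the 10 receptors above the level in non-EGFP cells alone, only Adgre4 (5.17) and Adgra2 (4.57) exceeded that mean. The part of the olfactory shift in these counts and in the small negative differences of receptors was not tested.

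Besides these receptors, the receptors above background in both groups were, among the adhesion receptors, Adgra3, Adgrb1, Adgrb2, Adgrd1, Adgre5, Adgrf5, Adgrg1, Adgrg2, Adgrl1, Adgrl2, Adgrl3 and Adgrv1. Among the Gpr genes they were Gpr3, Gpr4, Gpr17, Gpr18, Gpr19, Gpr20, Gpr27, Gpr34, Gpr35, Gpr37, Gpr39, Gpr62, Gpr65, Gpr75, Gpr85, Gpr89, Gpr107, Gpr108, Gpr132, Gpr135, Gpr137, Gpr137b, Gpr137b-ps, Gpr146, Gpr152, Gpr155, Gpr160, Gpr171, Gpr180 and Gpr183. Below it in both groups were 28, the adhesion receptors Adgrb3, Adgre1 (the macrophage antigen F4/80), Adgrf1, Adgrf4, Adgrg3, Adgrg6 and Adgrl4 and the genes Gpr1, Gpr12, Gpr15, Gpr25, Gpr26, Gpr31b, Gpr33, Gpr37l1, Gpr45, Gpr61, Gpr63, Gpr84, Gpr101, Gpr137c, Gpr143, Gpr149, Gpr151, Gpr158, Gpr173, Gpr174 and Gpr176. Of these 28, 24 had a negative difference, with a median of -0.24, and of all 3331 genes below background in both groups 88.9% had one, with a median of -0.34.

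**Figure D1:**
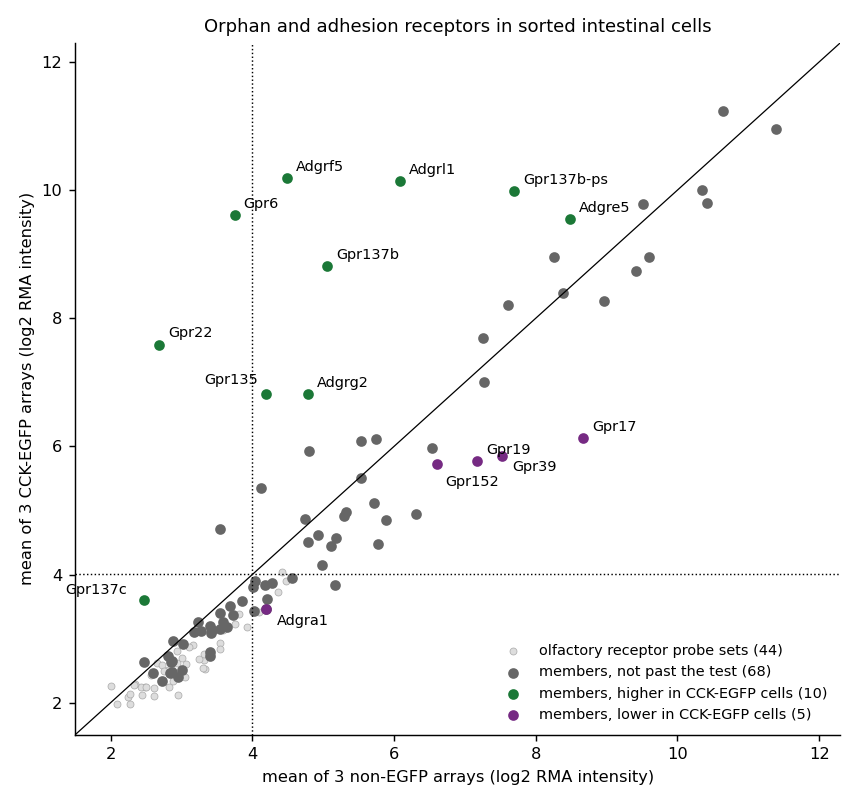
Mean log2 intensity of each of the 83 receptors in non-EGFP (horizontal) and CCK-EGFP arrays (vertical), with 3 arrays a group, olfactory receptor probe sets in pale grey and dotted lines at the background level of 4.0. Gpr6, Adgrf5 and Gpr22 stand far above the diagonal of equal values, while Gpr17 lies farthest below it.

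The median log2 difference of the 83 receptors was -0.30, against -0.17 for all genes. Increases of at least 3 were found for 5 receptors (6.02%), against 4.01% of all genes, and no receptor fell by that much, against 0.154%. The 3 values of each group did not overlap for 13 receptors that were higher (15.7%, against 21.8% of all genes) and 22 that were lower (26.5%, against 28.1%). Apart from increases of at least 3, the shares of receptors higher, lower or without overlap were below those of all genes. Among genes above background in either group, 16.4% of receptors were higher (against 17.1%) and 9.1% lower (against 11.8%). There 21.8% were higher without overlap (against 26.5%), but 36.4% were lower without overlap (against 26.6%). Below background in both groups, 7.1% were lower without overlap, against 34.8% of all such genes. The differences in shares were not tested. With the replicate number as a block, 10 were higher and 3 lower, against 12.9% and 8.43% of all genes.

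Gpr6 belongs to a trio, with Gpr3 and Gpr12, that raises cyclic AMP through the stimulatory G protein without added ligand. Gpr6 read 9.92, 10.07 and 8.83 in CCK-EGFP cells, against 3.37, 4.33 and 3.56 in non-EGFP cells. The groups were well apart, and 1 non-EGFP array exceeded the background level. Gpr6 was at least 48.7-fold higher when set against the background level (fitted log2 difference 5.86, SE 0.41, adjusted p = 0.000431). Gpr3 averaged 6.08 ± 0.96 (SD, n = 3) and 5.53 ± 0.11 and its groups overlapped (difference 0.55, adjusted p = 0.392), one CCK-EGFP array standing at 7.17. Gpr12 was below background in both groups, so of the trio Gpr6 alone passed the test.

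Among other class A orphans, Gpr22 and Gpr135 were higher and Gpr19 and Gpr152 lower, 2 and 2 of 34 (5.9% each, against 14% and 10.2% of all genes), and the median difference was -0.31. Gpr22, an orphan known from brain and heart, read 7.34, 7.46 and 7.98 in CCK-EGFP cells, against 2.44, 2.54 and 3.08 in non-EGFP cells. Each non-EGFP value was below background, and Gpr22 was at least 12-fold higher by that level (fitted log2 difference 4.90, SE 0.27, adjusted p = 0.000193). Its second probe set differed by 3.79. Gpr135 read 6.78, 6.42 and 7.24 against 4.11, 3.93 and 4.53, with no overlap, and was 6.16-fold higher (2.62, SE 0.28, adjusted p = 0.00188). Its 2 other probe sets gave 3.77 and -0.47, so the probe sets of Gpr135 did not have the same sign.

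Gpr19 read 5.88, 5.91 and 5.52 in CCK-EGFP cells, against 6.98, 7.77 and 6.75 in non-EGFP cells, 2.63-fold lower without overlap (adjusted p = 0.022). Gpr152 read 6.04, 5.76 and 5.38 against 6.76, 6.51 and 6.54 (difference -0.88, adjusted p = 0.0372). Both falls were sensitive to single arrays: that of Gpr19 ended without any 1 CCK-EGFP array (to an adjusted p of 0.0682) and with the mean of its 2 probe sets (0.0848). That of Gpr152 ended without any 1 of the 6 arrays (to 0.111) and with limma's trend and robust settings (0.0921). Gpr75, singled out after its values were seen, read 5.88, 6.45 and 3.71 against 3.98, 4.05 and 4.34, so CCK-EGFP replicate 3 lay below each non-EGFP value while the others lay above (1.22, adjusted p = 0.217). Gpr160 was above background on every array, at 8.95 ± 0.25 and 9.61 ± 0.20, and did not pass (-0.65, adjusted p = 0.0717).

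**Figure D2:**
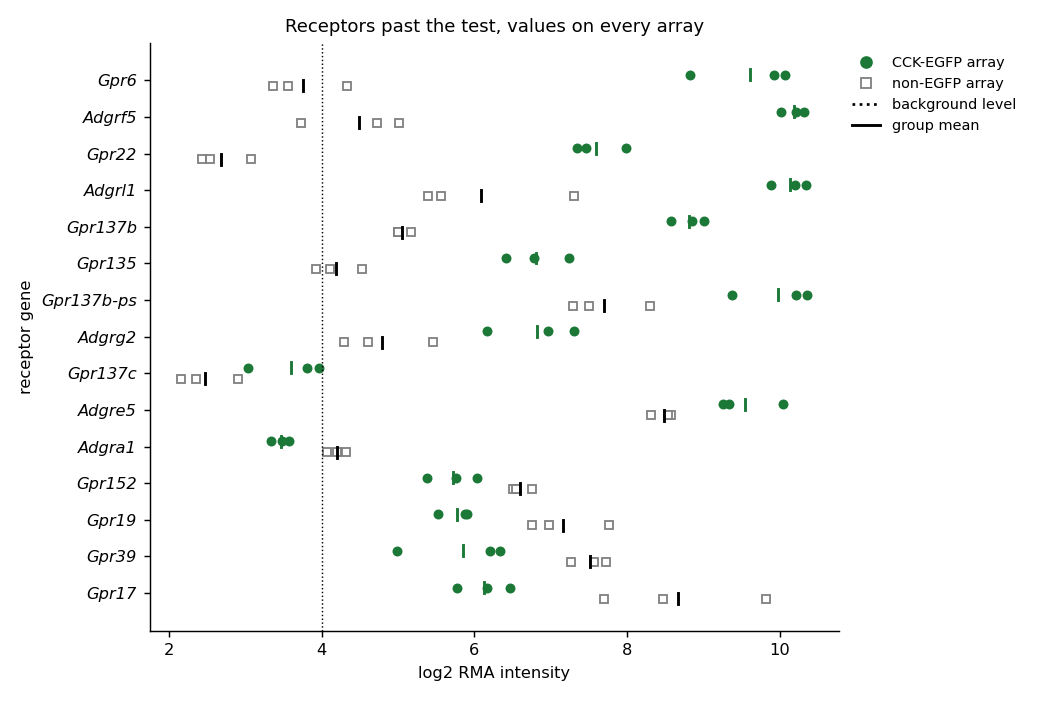
Log2 intensity on each array of the 15 receptors past the test, ordered by difference, with filled circles for CCK-EGFP arrays, open squares for non-EGFP arrays, bars at group means and a dotted line at the background level of 4.0. The groups do not overlap for any of the 15, and both groups of Gpr137c lie below the level.

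Of the 22 adhesion receptors 4 rose (18.2%, against 14% of all genes) and 1 fell (4.5%, against 10.2%), and their median difference was -0.28. Adgrf5, known for the control of lung surfactant and from endothelium, read 10.32, 10.21 and 10.01 in CCK-EGFP cells, against 3.73, 4.72 and 5.01 in non-EGFP cells. The CCK-EGFP values lay within a narrow range, and the lowest exceeded the highest non-EGFP value by far. It was 51.7-fold higher (log2 difference 5.69, SE 0.35, adjusted p = 0.000287), and its second probe set differed by 4.76. Beside it, the 5 endothelial markers averaged 4.27 to 4.54 in CCK-EGFP cells, against 3.70 to 4.98 in non-EGFP cells. Cdh5 and Tek were below background in both groups, Kdr stood at 3.55 ± 0.23 and 4.31 ± 0.82 (adjusted p = 0.21), Pecam1 stood at 5.89 ± 0.78 and 5.56 ± 1.5 (adjusted p = 0.762), and Tie1 was at least 4.16-fold higher (adjusted p = 0.015). Adgrl4, another endothelial adhesion receptor, was below background in both groups.

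Latrophilins bind teneurins and FLRT proteins on neighbouring cells, and Adgrl1 was first known as a target of spider toxin at synapses. Adgrl1 read 10.20, 10.34 and 9.88 in CCK-EGFP cells, against 5.57, 5.39 and 7.31 in non-EGFP cells, where 1 array was higher than the other two. It was 16.6-fold higher (log2 difference 4.05, SE 0.52, adjusted p = 0.00354), and its second probe set differed by 2.24. Adgrl2 was abundant in both groups at 10.01 ± 0.22 and 10.34 ± 0.34 (adjusted p = 0.329). Adgrl3 read 4.77, 5.24 and 4.85 against 7.28, 5.93 and 5.72, lower without overlap but not past the test (-1.36, adjusted p = 0.0637). Its 6 probe sets each had a negative difference, but most of them were below background in both groups. At that level 88.9% of all genes had a negative difference, so the shared sign says little.

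Adgrg2, an epididymal receptor in the subfamily of Adgrg1, read 6.97, 7.31 and 6.16 against 4.29, 5.46 and 4.61 and was 4.08-fold higher (2.03, SE 0.41, adjusted p = 0.0173). That call ended when CCK-EGFP replicate 1 or 2 was omitted (to an adjusted p of 0.0668) and with the mean of its 2 probe sets (0.0858). The second probe set of Adgrg2 averaged 4.10 in CCK-EGFP and 3.76 in non-EGFP cells and did not pass (0.34, adjusted p = 0.66 over all probe sets). Adgrg1, a receptor for collagen, averaged 7.69 ± 0.13 and 7.26 ± 0.34 (adjusted p = 0.199). Adgre5, the leukocyte and epithelial receptor also called CD97, read 9.25, 10.04 and 9.34 against 8.32, 8.58 and 8.54. Its groups were close but did not overlap, and it was 2.08-fold higher (adjusted p = 0.0312). The call of Adgre5 ended without any 1 array other than CCK-EGFP replicate 3 (to an adjusted p of 0.0808) and with arrays centred on their medians (0.0624).

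Adgra1 was the lower adhesion receptor, at 3.57, 3.48 and 3.34 against 4.20, 4.32 and 4.07. The CCK-EGFP values were below background and the non-EGFP values barely above it, and Adgra1 was at least 1.14-fold lower (fitted difference -0.73, adjusted p = 0.0308, and 0.0552 once replicate number was a block). That call also ended without any 1 array other than non-EGFP replicate 3 (to an adjusted p of 0.104). Adgra3 stood at 8.95 ± 0.32 and 8.26 ± 0.30 (adjusted p = 0.0946) and Adgrd1 at 9.78 ± 0.26 and 9.52 ± 0.29 (adjusted p = 0.432). Adgrb1, which recognises dying cells, stood at 5.98 ± 0.07 and 6.54 ± 0.31 (adjusted p = 0.105). Adgrv1, the very large receptor of hair cells, read 7.0, 4.17 and 6.15 on the non-EGFP arrays, a spread wider than its difference of -1.29 (adjusted p = 0.228).

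**Figure D3:**
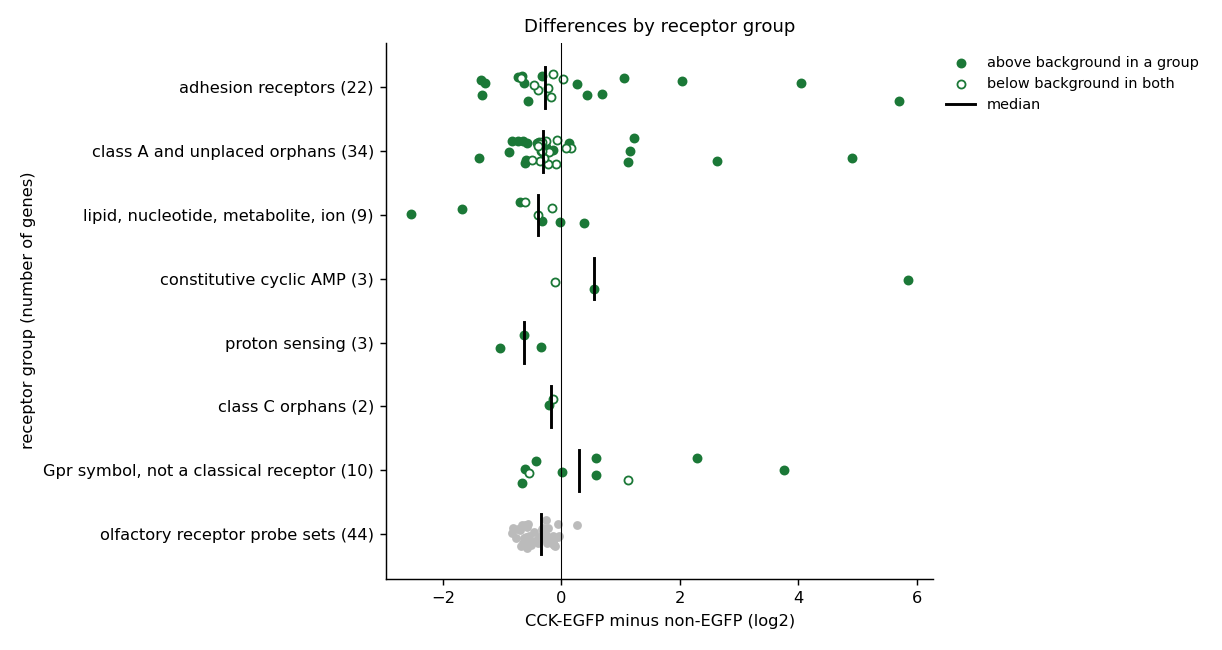
CCK-EGFP minus non-EGFP log2 difference of each receptor by group, filled where a group mean exceeded background and open where neither did, with bars at medians and the 44 olfactory receptor probe sets below. The olfactory median of -0.35 lies close to the medians of -0.28 for adhesion receptors and -0.31 for class A orphans.

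Of 9 receptors for lipids, nucleotides, metabolites and ions, 0 were higher and 2 lower, Gpr17 and Gpr39 (22.2%, against 10.2% of all genes). Gpr17, a relative of the nucleotide and cysteinyl leukotriene receptors known from oligodendrocyte precursors, read 5.77, 6.47 and 6.16 in CCK-EGFP cells, against 8.47, 9.82 and 7.70 in non-EGFP cells. The groups did not overlap and Gpr17 was 5.78-fold lower (log2 difference -2.53, SE 0.54, adjusted p = 0.0193), a call that ended when CCK-EGFP replicate 1 or 2 was omitted (to an adjusted p of 0.0694). Gpr39, which responds to zinc, read 4.99, 6.21 and 6.34 against 7.72, 7.57 and 7.26. It was 3.18-fold lower (-1.67, SE 0.39, adjusted p = 0.0259, and 0.0505 once replicate number was a block), and the call ended when non-EGFP replicate 1 or 2 or CCK-EGFP replicate 2 was omitted (to 0.0727). Gpr35, a receptor for kynurenic acid, averaged 6.12 ± 0.45 and 5.74 ± 0.35 (adjusted p = 0.372), and Gpr84 was below background in both groups. Gpr119, Gpr142, Gpr55 and Adgrg4 were not analysed here.

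The 3 measured proton-sensing receptors were above background in both groups and 0 of 3 passed the limma test (1 at an unadjusted p below 0.05). Gpr132 read 4.69, 4.40 and 5.49 against 5.96, 5.78 and 5.93 and lay just outside the threshold (-1.03, adjusted p = 0.0531), and it passed under 5 alternatives. The adjusted p was 0.0489 with dim genes removed, 0.0224 with arrays centred, 0.0254 with a second quantile normalization, 0.0229 with the mean of its probe sets and 0.0128 without CCK-EGFP replicate 3, while omitting any other array gave up to 0.155. Gpr4 averaged 4.56 ± 0.28 and 5.19 ± 0.44 (adjusted p = 0.15) and Gpr65 averaged 4.98 ± 0.59 and 5.32 ± 0.95 (adjusted p = 0.645).

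Among receptors known from leukocytes, Gpr171 and Gpr34 differed more between replicate numbers than between the groups. Gpr171, Gpr34 and Gpr183 were singled out after their values were seen. Gpr171, a receptor of T cells, read 5.54, 6.78 and 8.70 in CCK-EGFP replicates 1, 2 and 3 and 5.83, 7.20 and 8.77 in the non-EGFP samples of the same numbers. Its differences within a number were -0.28, -0.43 and -0.07, so samples of the same number had near-equal values while the numbers lay far apart. Gpr34, a lysophosphatidylserine receptor of macrophages and microglia, read 2.75, 4.42 and 6.66 against 3.25, 5.32 and 6.22, in both groups lowest in the sample numbered 1 and highest in that numbered 3. Gpr18, high in intraepithelial lymphocytes, read 7.23, 8.28 and 9.31 against 8.92, 9.22 and 8.76, and only its CCK-EGFP values had that pattern. Gpr183, an oxysterol receptor that guides lymphocytes, read 5.44, 3.77 and 7.32 against 4.43, 7.58 and 4.60 and did not have it. With the block the adjusted p-values were 0.345 for Gpr171, 0.468 for Gpr34 and 0.312 for Gpr18.

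The 7 T and NK lymphocyte markers were all above background on every array. Their mean level was 9.52, 10.60 and 11.76 in CCK-EGFP replicates 1, 2 and 3 and 10.26, 10.76 and 11.62 in the non-EGFP samples, and 0 of 7 passed the limma test between groups (0 at an unadjusted p below 0.05). The 7 macrophage and myeloid markers averaged 5.19 to 6.34 in CCK-EGFP cells, against 6.99 to 7.20 in non-EGFP cells, with Itgam below background. Of the 7, C1qb and C1qc were lower (28.6%, against 10.2% of all genes), while C1qa had a positive difference and did not pass (0.29, adjusted p = 0.612). With the replicate number as a block Lyz2 was lower too (-1.70, adjusted p = 0.0253, against 0.0861 without it). C1qc lost its call without CCK-EGFP replicate 1 (adjusted p = 0.0618). The 3 measured B cell markers ran from 5.23 to 8.61, against 6.21 to 7.75. The 5 tuft cell markers averaged 7.34 to 8.39 against 5.66 to 6.33, and all 5 differences were positive. Dclk1, Avil and Gfi1b were higher (60%, against 14% of all genes). Trpm5 overlapped between the groups and did not pass (0.66, adjusted p = 0.156). Pou2f3 was below background and did not pass (0.42, adjusted p = 0.131). The call of Gfi1b was lost with the replicate number as a block (adjusted p = 0.0581), with a second quantile normalization and without any 1 array other than CCK-EGFP replicate 3 (to 0.124). The 5 measured enteric neuron and glia markers averaged 5.29 to 5.74 against 4.36 to 4.75, although the median of their 5 differences was -0.61. Ret had by far the largest of them (6.29, adjusted p = 0.000717). Gfap was at least 1.61-fold higher (adjusted p = 0.0149), a call lost when CCK-EGFP replicate 1 or 2 was omitted and with the mean of its probe sets (to 0.283). Elavl4 (-0.68), Sox10 (-0.92) and S100b (-0.61) had lower values without overlap and did not pass (adjusted p = 0.0974, 0.0557 and 0.118). The 3 goblet markers averaged 12.33 to 13.02 against 13.39 to 13.65, with Muc2 lower, a call lost without any 1 array other than CCK-EGFP replicate 3 (to an adjusted p of 0.114) and with a second quantile normalization. The 5 stromal markers averaged 4.34 to 4.62 against 4.39 to 4.42, with Dcn and Pdgfra below background. The part of these cells in the receptor differences was not tested.

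**Figure D4:**
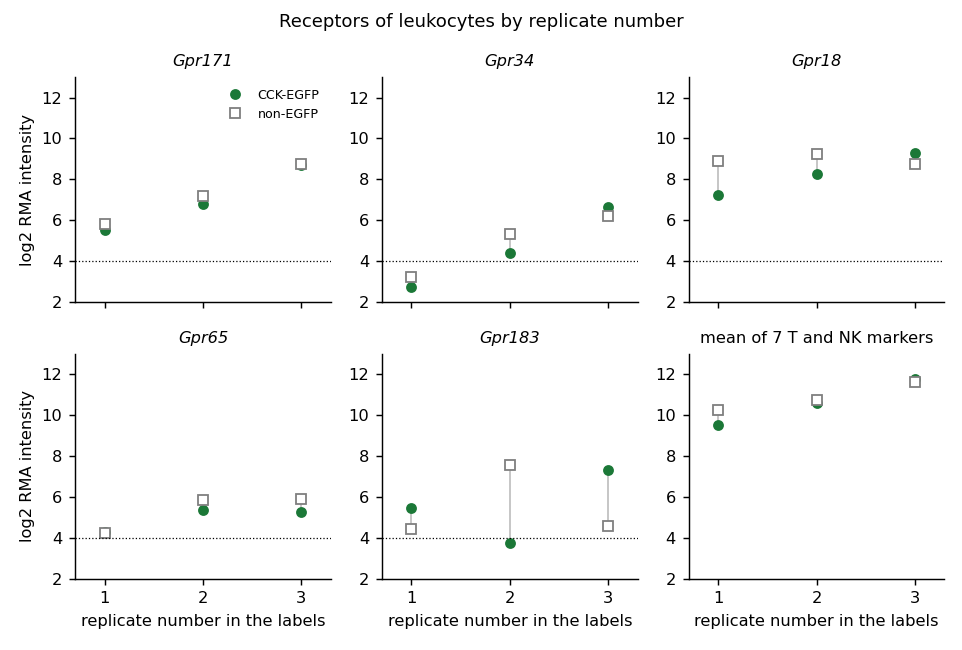
Log2 intensity of 5 receptors known from leukocytes, and the mean of 7 T and NK markers, by replicate number in the labels, with thin lines joining the CCK-EGFP and non-EGFP samples of a number and a dotted line at the background level. Gpr171 lies between 5.54 and 5.83 in the samples numbered 1 and between 8.70 and 8.77 in those numbered 3, whereas the groups of Gpr183 do not share a pattern.

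Membrane proteins that carry a Gpr symbol but lie outside the classical receptor families numbered 10, of which 3 rose (30.0%, against 14% of all genes) and 0 fell, against 10.2% (2 others had a negative difference at an unadjusted p below 0.05), and their median difference was 0.29. Gpr137b, a lysosomal membrane protein, read 9.01, 8.85 and 8.58 in CCK-EGFP cells, against 5.0, 5.0 and 5.17 in non-EGFP cells. Its replicates lay close together in both groups, and it was 13.5-fold higher (log2 difference 3.76, SE 0.19, adjusted p = 0.000153), with its 4 probe sets differing by 1.14 to 3.76. The transcribed pseudogene Gpr137b-ps read 10.36, 10.21 and 9.38 against 7.50, 7.29 and 8.30 (2.29, adjusted p = 0.00865). As a near-identical copy it can share signal with Gpr137b, and which of the pair was measured is uncertain. Gpr137c was called at the edge (1.13, adjusted p = 0.0497), with both groups below background, and lost the call when any 1 of CCK-EGFP replicates 1 and 2 and non-EGFP replicates 2 and 3 was omitted (to an adjusted p of 0.152) and with arrays centred on their medians.

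Gpr137 was 9.80 ± 0.10 and 10.42 ± 0.18 (-0.62, adjusted p = 0.0534), with no overlap. The Golgi pH regulator Gpr89 stood at 10.96 ± 0.21 and 11.39 ± 0.42 (adjusted p = 0.26). Gpr155, a cholesterol-sensing lysosomal protein, stood at 11.23 ± 0.52 and 10.64 ± 0.46 (adjusted p = 0.245). Gpr108, a Golgi protein, averaged 8.39 in both groups (adjusted p = 0.995), and Gpr180 stood at 8.20 ± 0.37 and 7.61 ± 0.13 (adjusted p = 0.113). Gpr107, the Golgi relative of Gpr108, read 8.67, 8.65 and 8.91 against 9.54, 9.53 and 9.16 and did not pass by its brightest probe set (-0.67, adjusted p = 0.0544).

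Different probe sets of a gene changed the reading for 3 receptors not called by their brightest one, over the 34945 probe sets tested alone. Gpr85, an orphan conserved in brain and singled out after its values were seen, averaged 5.92 ± 0.79 and 4.80 ± 0.42 by its brightest probe set (1.12, adjusted p = 0.106). A second of its 4 probe sets averaged 7.98 in CCK-EGFP cells and 2.62, below background, in non-EGFP cells (fitted difference 5.36, SE 0.37, adjusted p = 0.000495). The other two differed by 2.67 (adjusted p = 0.0111) and -0.39. With the mean of its probe sets Gpr85 passed the test (adjusted p = 0.0035). For Gpr107, 2 of its other probe sets fell by 1.61 and by 2.17 (adjusted p = 0.00572 and 0.0049). For Gpr146, also chosen after its values were seen, 1 of 4 probe sets was higher by 1.69 (adjusted p = 0.0114) and the brightest differed by 0.13. Of the 33 receptors with several probe sets, 27 had the same sign in all of them, and the share over all genes was not computed.

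**Figure D5:**
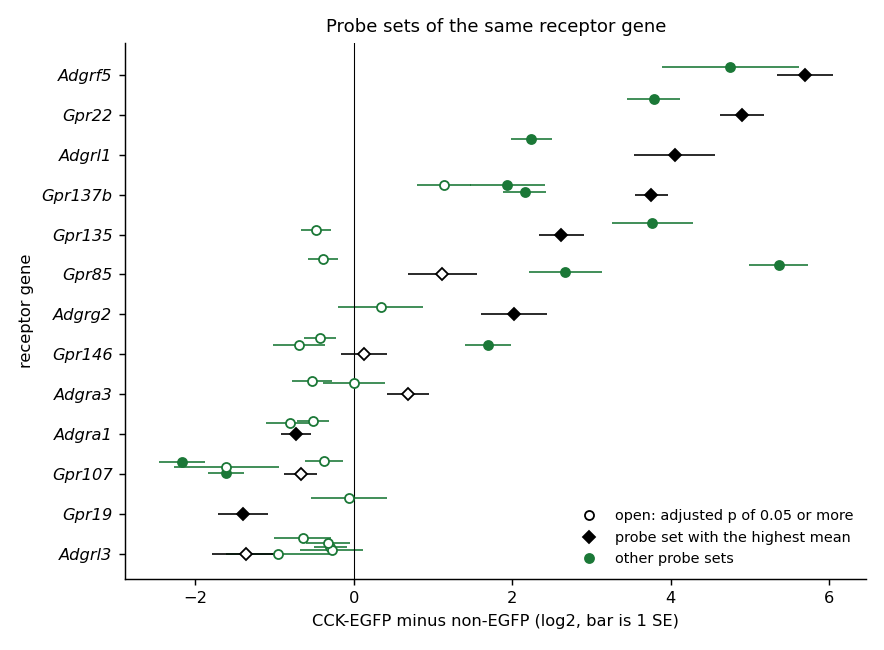
CCK-EGFP minus non-EGFP log2 difference of each probe set, with bars of 1 SE, for 13 receptors with several probe sets, the brightest as a diamond and the others as circles, filled where the adjusted p was below 0.05. The probe sets of Gpr85 spread from -0.39 to 5.36, while those of Adgrf5, Gpr22 and Adgrl1 each lie at 2.24 or above.

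The partners of these receptors were read from lists of G protein subunits, kinases, arrestins, accessory proteins, ligands and relatives. These lists were chosen with earlier results of these data known, so their shares are descriptive only. Of 74 measured, 21 were higher (28.4%, against 14% of all genes) and 7 lower (9.5%, against 10.2%), with a median difference of 0.01 against -0.17 for all genes. Among 13 G alpha subunits 5 rose (38.5%, against the same 14%) and 0 fell, and the median difference was 0.37. The inhibitory subunit Gnai1, at 10.35 ± 0.18 and 3.11 ± 0.36, was at least 81.2-fold higher against the background level (adjusted p = 0.000104). Gnaz, of the same inhibitory class, was higher by 4.87 (adjusted p = 0.000623) and Gnao1 by 4.10 (adjusted p = 0.00578). Gnaq was higher by 0.94 (adjusted p = 0.0157), and its call ended when CCK-EGFP replicate 1 or 2 was omitted (to 0.0661), with arrays centred and with the mean of its probe sets. The stimulatory subunit Gnas, which couples to Gpr6, averaged 12.34 ± 0.15 and 11.66 ± 0.11 (0.68, adjusted p = 0.0399, and 0.0651 once replicate number was a block), and its call ended without any 1 array (to an adjusted p of 0.141), with arrays centred on their medians and with the mean of its probe sets (to 0.506). Of 6 kinases and arrestins 2 were higher (33.3%, against 14% of all genes) and 1 lower (16.7%, against 10.2%). The receptor kinase Grk3 was higher by 3.84 (adjusted p = 0.000737) and Grk6 by 0.95 (adjusted p = 0.0231, lost with arrays centred, with the mean of its probe sets and with single arrays omitted, to 0.0888), while the arrestin Arrb1 fell by 1.23 (adjusted p = 0.0156), a call lost without CCK-EGFP replicate 1 or 2 (to 0.0676).

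Ligands of adhesion receptors moved both ways, 4 of 15 rising and 4 falling around a median of 0.33 (26.7% each, against 14% and 10.2% of all genes). Of the proteins that bind latrophilins, Tenm4 was higher by 3.52 (adjusted p = 0.00912) and Flrt1 at least 12-fold higher (adjusted p = 0.0014), while Flrt3 fell by 1.69 (adjusted p = 0.00568). C1ql3, a ligand of Adgrb3, was at least 2.54-fold higher (adjusted p = 0.00279), a call lost with the mean of its probe sets (0.074). Tgm2 fell by 1.10 (adjusted p = 0.047), and Tenm2, below background in CCK-EGFP cells, was at least 1.04-fold lower (adjusted p = 0.0388, and 0.0581 with the block). Both lost the call with single arrays omitted (to 0.137 and 0.0981) and with a second quantile normalization. The prion protein gene Prnp, whose product binds Adgrg6, read 12.96, 13.12 and 12.68 against 6.04, 7.44 and 7.25 (6.01, adjusted p = 0.000349), and Adgrg6 itself was below background. Cd55, the partner of Adgre5, fell by 1.37 (adjusted p = 0.0169, with the call lost without CCK-EGFP replicate 2 or non-EGFP replicate 2, to 0.0706, and with the mean of its probe sets, 0.0832). The 3 Celsr genes, adhesion receptors of planar cell polarity named outside the Adgr scheme, were each higher (100%, against 14% of all genes). Celsr2 stood at 8.83 ± 0.06 and 5.21 ± 0.65 (3.62, adjusted p = 0.00113) and Celsr3 at 10.58 ± 0.26 and 7.88 ± 0.41 (2.71, adjusted p = 0.00146). Celsr1 differed by 3.54 (adjusted p = 0.0154), and its call ended without CCK-EGFP replicate 1 or 2 (to 0.0556).

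A further list held receptors paired with a ligand and named outside the Gpr numbering. Of its 22 measured members, 5 rose (22.7%, against 14% of all genes) and 1 fell (4.5%, against 10.2%) around a median of -0.26, and 12 were below background in both groups. The fatty acid receptors Ffar2 (4.14) and Ffar4 (3.02) and the estrogen receptor Gper1 (2.68, adjusted p = 0.0131) were among the higher ones. So was the lysophosphatidic acid receptor Lpar6 (2.16, adjusted p = 0.022, and 0.0758 at most with 1 array omitted), while the lower one, the bradykinin receptor Bdkrb1, was below background in both groups and lost its call with the replicate number as a block (adjusted p = 0.0728), without any 1 array (to 0.129) and with a second quantile normalization (0.197). The lactate receptor Hcar1 read 7.47, 6.99 and 5.37 against 4.09, 3.77 and 3.31 and was at least 6.1-fold higher (adjusted p = 0.0142), and it lost its call without CCK-EGFP replicate 2 (0.0594). Among 5 class C relatives only Gprc5c passed the test, as higher (20%, against 14% of all genes). It stood at 7.58 ± 0.24 and 4.38 ± 0.44 (3.20, adjusted p = 0.000858). Gprc5a was lower with the block (adjusted p = 0.0449). Of 10 accessory proteins 1 was higher and 1 lower (10% each, against 14% and 10.2% of all genes). The lower one was the chaperone Rtp4 (-1.09, adjusted p = 0.0349, and 0.0542 once replicate number was a block). Its call was also lost without any 1 array other than non-EGFP replicate 3 (to 0.122). With the block Ramp3 was higher too (adjusted p = 0.0188, against 0.101 without it). Ramp2, which partners the receptors of adrenomedullin, read 6.89, 8.50 and 6.99 against 4.51, 3.51 and 4.77 (3.20, adjusted p = 0.00892).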

How the data were processed

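Gene expression was measured on 6 Affymetrix arrays. The deposited table holds log2 values of 45101 probe sets, from 1.47 to 14.8. The authors made them with RMA according to the submitters' processing notes, and the log2 scale is read from their range. RMA corrects background, normalizes quantiles and summarises probes, and gives no detection call. Its version is not given in the sources used here. Per the labels' protocols the RNA was amplified from very small inputs, which can add variation at low levels.

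Symbols came from the platform annotation: 34945 probe sets had 1 symbol, 932 several and 9160 none, and 64 controls were set aside. The identifiers of all 83 receptors were found in RefSeq (GRCm38.p6), with 0 symbols changed, and 5 probe sets shared with another gene were left out.

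The 2 groups were tested by lmFit and eBayes of limma 3.58.1 (R 4.3.3) with two-sided p-values adjusted by Benjamini-Hochberg over 18193 genes, and the script was checked on simulated data. Python 3.11.15, pandas 2.3.3 and matplotlib 3.10.9 made tables and figures. Folds use the background level where 1 group mean lay below it. The receptors and lists were chosen with earlier results of these data known. The text names receptors past the test and above background (up to 25 higher and 15 lower), the 12 with the highest mean among those not past it, and 20 listed for their roles, 5 of them not analysed here. Others are named for single values.

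Samples of the same replicate number deviated together (correlations of 0.27, 0.16 and 0.22 across genes, against -0.25 to -0.01 for other numbers). The number was therefore fitted as a block in an alternative only, and the labels do not say what it marks. The main test has no block. Alternatives were the replicate block, removal of dim genes, trend and robust settings, centring on medians, a second quantile normalization, other probe set rules, other background levels and leaving out each array. With 3 arrays a group their number limits the precision.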

Additional observations from a re-analysis of the deposited data

How the results depend on the processing

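Array medians were 5.66 to 5.72 in the CCK-EGFP group, against 5.37 to 5.55, and centring them moved the median difference of all genes from -0.17 to -0.42. Under centring 13 receptors were lower in place of 5, and 12 of the partner genes in place of 7. Centring shifted all genes, and the shares of all genes called were not computed for the alternatives other than the block. These counts are therefore not read as particular to the receptors. With the replicate number as a block 3 receptors were lower, Gpr39 and Adgra1 losing their calls, and no other call among the 83 receptors changed. Leaving out 1 array gave 0 to 11 lower receptors and 1 to 4 lower partner genes, with 0 lower receptors by limma without CCK-EGFP replicate 2 (9 at an unadjusted p below 0.05) and 11 without non-EGFP replicate 3. The number of higher receptors was 7 to 11 under the alternatives, against 10, and that of higher partner genes 15 to 21, against 21. Receptors above background numbered 46 to 60, against 55, when the background level was set at 3.58 to 4.60 or each array was left out. Of the 14 named receptors past the test, 7 kept their call under all 12 alternatives of the fit (Gpr6, Adgrf5, Gpr22, Adgrl1, Gpr137b, Gpr135 and Gpr137b-ps). One probe set of Gpr135 differed by -0.47 against the direction of the gene (adjusted p = 0.123 over all probe sets). Why these values changed was not tested. Low signal limits the receptors near or below the background level, whose small negative differences resemble those of olfactory receptor probe sets in size.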
